A study of Mus musculus with 9 samples.

Results

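Fibroblast growth factors (FGFs), platelet-derived growth factors (PDGFs) and hepatocyte growth factor (HGF) are secreted proteins that bind receptor tyrosine kinases, and 10 genes of these families were followed in the stromal vascular fraction (SVF) of injured mouse fat. They are the ligands Fgf2, Fgf7, Fgf10, Pdgfa, Pdgfb, Pdgfc, Pdgfd and Hgf and the receptors Fgfr1 and Met. The genes were chosen by name, from the probe sets whose array annotation gives exactly 1 gene symbol. They are 10 of the 18193 genes named on the array and have 21 probe sets, of which 18 passed the filter on dim signals and made all 10 genes testable. The SVF is the mixed cell population left when enzyme-digested fat is freed of its fat cells, and holds progenitors, pericytes, endothelial cells and blood cells.

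Total RNA came from SVFs of the inguinal subcutaneous fat of wild-type Balb/c mice aged 10 weeks. The SVFs were taken on day 0 (the baseline, which the study calls nonprimed, its methods' name for SVFs after a sham operation), day 1 or day 3 after the fat had been surgically injured, with 3 mice on each day. The surgery is called priming, and per the study's methods it joined mincing of the fat with ligation of its feeding artery, while the labels name the injury only. Each mouse was measured on 1 Affymetrix expression array, and the values below are MAS5 signals on a linear scale, for which the arrays give no read depth and the number of mice limits the precision. All mice share strain and genotype, and no group of injured mice without ligation was analysed here. Signals of different probe sets are not comparable with each other, so levels were compared between days and never between genes.

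In wounded tissue FGFs and PDGFs drive the growth and migration of fibroblasts, progenitors and mural cells, and HGF acts on epithelial and endothelial cells. FGFs need heparan sulfate chains on the cell surface to engage their receptors. PDGFs act as dimers on the receptors PDGFRα and PDGFRβ, and HGF, made by mesenchymal cells as an inactive precursor, acts on MET after cleavage.

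Per array, 24106 to 26299 of 45101 probe sets were called present, fewest on day 1. All 17 named progenitor and fibroblast markers, 12 endothelial markers and 12 macrophage markers were present on all 9 arrays, as were 10 of 12 pericyte and smooth muscle markers, while the keratins Krt5, Krt14 and Krt7 and the mesothelial genes Msln, Upk3b and Lrrn4 were present on none. Of the cell types checked, the neutrophil list differed most from day 0. Its mean log2 signal over 7 genes lay 4.47 to 4.78 above day 0 in the day 1 mice and 2.64 to 3.25 above it in the day 3 mice. In bulk RNA of this kind, fewer cells of a type and less RNA per cell cannot be told apart.

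On day 1, 3 of the 10 genes were called at an adjusted p under 0.05 against day 0, beside 28.6% of the 11796 genes tested. Fgf7 was the 1 gene that rose (10.7% of all genes rose), and Fgf10 and Pdgfd were the 2 that fell (17.9% fell). On day 3, 5 of the 10 were called against day 0, beside 26.1% of all genes. Pdgfb, Pdgfc and Hgf rose (13.6% of all genes rose), and Fgf10 and Pdgfd fell (12.5% fell). Day 3 differed from day 1 in 2 of the 10, beside 14.2% of all genes, with Pdgfb higher (9.66% of all genes were higher) and Met lower (4.54% were lower) on day 3. The count on day 1 was close to the share of all genes.

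The 3 mice of a day did not overlap with the 3 mice of day 0 for 5 of the 10 genes on day 1, beside 40.0% of all genes. Of these, 2 were higher (13.8% of all genes) and 3 lower (26.1%). On day 3 they did not overlap with day 0 for 6 of the 10, beside 47.2%, with 4 higher (22.6%) and 2 lower (24.6%). Day 3 and day 1 did not overlap for 5 of the 10, beside 35.0%, with 2 higher (23.4%) and 3 lower (11.5%) on day 3.

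The median log2 change of the 10 genes was 0.19 on day 1, 0.21 on day 3 and -0.01 between day 3 and day 1. Over all genes it was -0.13, -0.03 and 0.09. When each array was centred on its own median, the median change of all genes on day 1 became -0.01, and the changes of the 10 genes on day 1 were then read relative to that shift. Fgf7 at 1.14 and Pdgfd at -0.66 were still called, Hgf at 0.70 and Met at 0.60 were now called, and Fgf10 at -0.46 was not (adjusted p = 0.0948). This centring and quantile normalization also moved the balance of all calls. Of the genes called on day 1, 62.5% were lower as deposited, 42.8% with centring and 51.8% with quantile normalization. For day 3 against day 1 the shares were 32%, 56.6% and 39.3%.

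**Figure D1:**
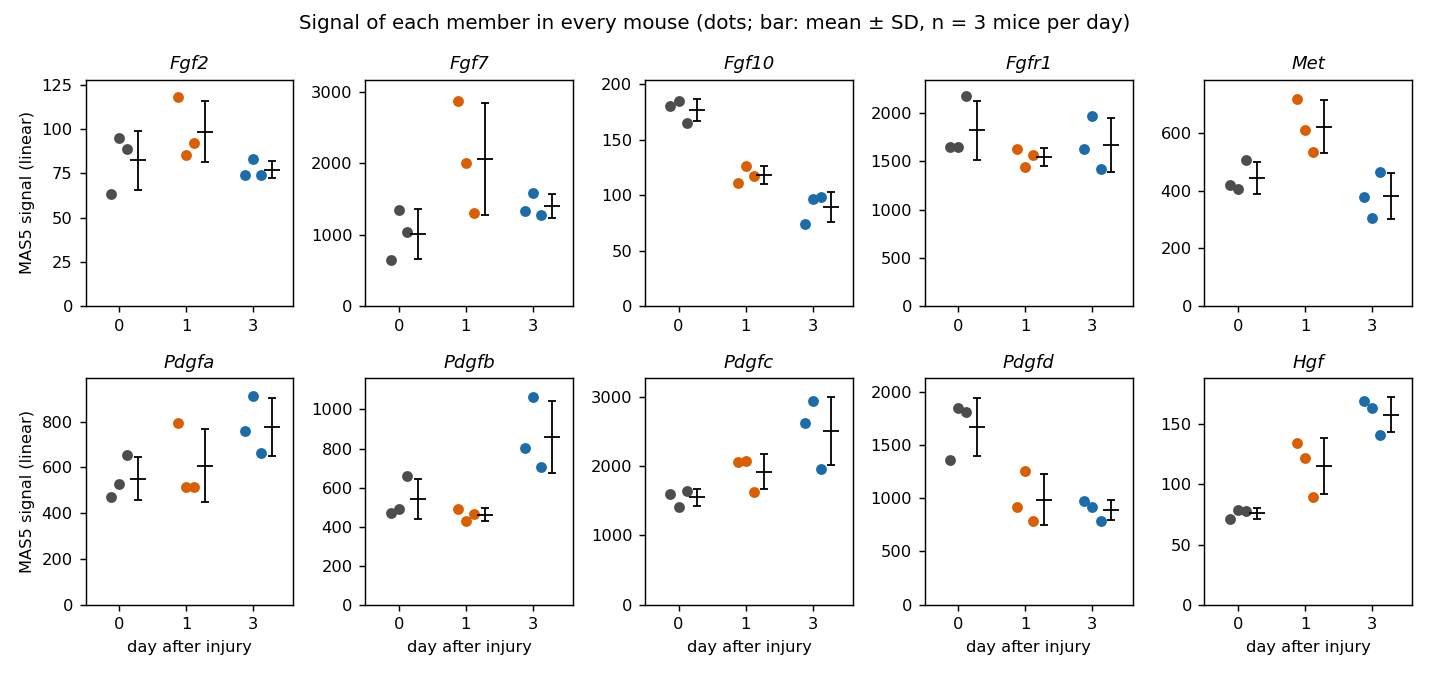
MAS5 signal (linear scale from 0) of the 10 genes by day after injury, with 1 dot per mouse and the mean ± SD beside the 3 dots of each day. Fgf10 and Pdgfd lay lower in all day 3 mice than in all day 0 mice, and Pdgfa, Pdgfb, Pdgfc and Hgf lay higher.

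Among the FGF ligands, Fgf7 rose on day 1. Fgf7, also called keratinocyte growth factor, is made by mesenchymal cells and acts on epithelial FGF receptors. Its signals were 651, 1349 and 1034 on day 0, 2879, 1999.9 and 1309.7 on day 1, and 1336, 1587 and 1277 on day 3. The day 1 mice spread widely, and the lowest of them lay below the highest day 0 mouse. The mean was 2063 ± 786 on day 1 and 1012 ± 349.5 on day 0 (SD, n = 3 mice each). The log2 change was 1.02 ± 0.29 (SE), a 2.02-fold rise (limma, adjusted p = 0.0230). On day 3 the change was 0.52 ± 0.29 (adjusted p = 0.203) and did not pass the test. The second Fgf7 probe set had 474, 864 and 689 on day 0, 2026, 1169.5 and 828 on day 1, and 812, 862 and 696 on day 3. Taken in place of the first, it gave 0.93 on day 1 (adjusted p = 0.0335). The call on day 1 was lost without day 0 replicate 1 (0.73, adjusted p = 0.0836) or replicate 3 (0.0576), and without day 1 replicate 1 (0.74, 0.0882) or replicate 2 (0.0610).

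The 250 bases before the annotated start of Fgf7 (RefSeq, GRCm38.p6, chr2:126034408-126034657, plus strand) are shown because this ligand had its highest mean on day 1. Capitals mark the hypoxia response element core GCGTG, found once, at bases -188 to -184 relative to the start.
Fgf7: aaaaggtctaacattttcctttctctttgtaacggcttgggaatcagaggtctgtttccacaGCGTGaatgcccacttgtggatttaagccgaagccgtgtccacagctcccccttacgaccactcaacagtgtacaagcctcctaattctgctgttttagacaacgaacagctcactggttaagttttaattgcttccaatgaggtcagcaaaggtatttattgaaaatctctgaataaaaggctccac
Of 32851 promoter windows of this length, 28.2% hold GCGTG on either strand. The window held no match to the other core ACGTG (16.6% of windows), the AP-1 motif TGANTCA (6.75%), the NF-kB motif (GGGA and TTCC with 2 bases between them, 1.21%), the EGR motif GCGNGGGCG (4.7%), the GC box GGGCGG (32.7%) or the TATA box TATAAA (12.4%). All were searched on both strands, N stands for any base, and a match is no evidence of binding.

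Fgf10 fell on both days. It is the closest relative of Fgf7 by receptor use, and in fat it is known as a growth factor of preadipocytes. It had signals of 180.2, 185 and 165 on day 0, 111, 127 and 118 on day 1, and 73.7, 96.3 and 98.4 on day 3. The 3 days formed 3 separate groups, in falling order, and on day 3 the probe set was called present on 1 of 3 arrays only. The log2 change on day 1 was -0.58 ± 0.19 (adjusted p = 0.0380). On day 3 it was -0.99 ± 0.19, 1.99-fold lower (adjusted p = 0.00272). Between day 3 and day 1 the change of -0.42 ± 0.19 did not pass (adjusted p = 0.153). Fgf10 has 1 probe set. Its call on day 1 was lost when any 1 of the 6 arrays of days 0 and 1 was left out (adjusted p = 0.0566 without day 1 replicate 3 to 0.113 without day 1 replicate 1) and with quantile normalization (-0.30, adjusted p = 0.270), while the call on day 3 was kept in each of these settings.

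The window before the start of Fgf10 (GRCm38.p6, chr13:118714449-118714698, plus strand) is shown beside that of Fgf7, since the changes of these related ligands on day 1 were opposite. Its capitals mark a GC box read on the minus strand, the only match among the motifs searched.
Fgf10: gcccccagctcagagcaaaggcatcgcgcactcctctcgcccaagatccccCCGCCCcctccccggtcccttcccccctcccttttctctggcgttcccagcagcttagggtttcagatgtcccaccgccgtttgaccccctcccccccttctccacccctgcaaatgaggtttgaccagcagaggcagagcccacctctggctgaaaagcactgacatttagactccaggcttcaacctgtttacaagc

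Fgf2, basic FGF, a ligand known for its effect on endothelial cells and fibroblasts, had low signals and no called change. They were 63.6, 94.7 and 88.9 on day 0, 118, 85.4 and 91.9 on day 1, and 74.1, 82.8 and 74.3 on day 3. The day 3 mice lay below all day 1 mice, but both overlapped with day 0. The log2 change was 0.26 on day 1 (95% interval -0.25 to 0.78) and -0.08 on day 3 (-0.59 to 0.44), and neither passed the test (adjusted p = 0.412 and 0.836).

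Fgfr1, the FGF receptor most typical of mesenchymal cells, showed no called change. Its signals were 1649, 1644 and 2172 on day 0, 1629.5, 1441 and 1562 on day 1, and 1628, 1969 and 1418 on day 3. A day 0 mouse stood above all others. The day 1 mice lay just below all day 0 mice, and the day 3 mice overlapped with both. The log2 change was -0.23 on day 1 (95% interval -0.56 to 0.10) and -0.12 on day 3 (-0.45 to 0.21). With the other probe sets it was -0.29 and -0.39 on day 1 and -0.07 and -0.46 on day 3, none of them called (adjusted p from 0.0928 to 0.780).

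The PDGF ligands moved in different directions. Pdgfa and Pdgfb encode the classical chains, and Pdgfc and Pdgfd encode chains with a CUB domain that must be cut off before they can bind. Pdgfb, the chain through which endothelial cells recruit pericytes, had signals of 472, 488 and 658 on day 0, 490.2, 427 and 467 on day 1, and 805, 1062 and 707 on day 3. All day 3 mice lay above all mice of the other days, while days 0 and 1 overlapped. The mean was 858 ± 183 on day 3 and 539 ± 103 on day 0 (SD, n = 3 mice each), a log2 change of 0.66 ± 0.18 or 1.59-fold (adjusted p = 0.0176). Day 3 stood 0.88 ± 0.18 above day 1 (adjusted p = 0.00798), and the change on day 1 was -0.21 ± 0.18 (adjusted p = 0.380). The second probe set had 139, 108 and 204 on day 0, 131, 126 and 137 on day 1, and 196, 190.0 and 180 on day 3. It gave changes in the same directions that did not pass the test (0.38 on day 3, adjusted p = 0.231, and 0.52 between day 3 and day 1, 0.132). The call of day 3 against day 0 was lost without day 0 replicate 1 (0.58, adjusted p = 0.0626), day 0 replicate 2 (0.0607) or day 3 replicate 2 (0.50, 0.0813), and that of day 3 against day 1 was kept with any 1 array left out.

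Pdgfc rose on day 3. It signals through PDGFRα and, in mice, is widely made by mesenchymal cells. Its signals were 1597, 1405 and 1641 on day 0, 2058, 2072 and 1633 on day 1, and 2617, 2932 and 1962 on day 3. Day 3 did not overlap with day 0, and the day 1 mice lay between, reaching into both. The mean was 2504 ± 495 on day 3 and 1548 ± 126 on day 0, a log2 change of 0.68 ± 0.16 or 1.60-fold (adjusted p = 0.00934). On day 1 the change was 0.31 ± 0.16 (adjusted p = 0.163). The second probe set had 918, 1469.6 and 1427 on day 0, 977, 1280.5 and 1264 on day 1, and 1792, 2096 and 1578 on day 3. In its values days 0 and 1 were alike in range, the change on day 1 was -0.09, the change on day 3 was 0.54 (adjusted p = 0.0578) and day 3 stood 0.64 above day 1 (adjusted p = 0.0473).

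The window before the start of Pdgfc (GRCm38.p6, chr3:81036166-81036415, plus strand) is shown because Pdgfc had the highest rise called among the PDGF genes on day 3. It held none of the motifs searched and has no capitals.
Pdgfc: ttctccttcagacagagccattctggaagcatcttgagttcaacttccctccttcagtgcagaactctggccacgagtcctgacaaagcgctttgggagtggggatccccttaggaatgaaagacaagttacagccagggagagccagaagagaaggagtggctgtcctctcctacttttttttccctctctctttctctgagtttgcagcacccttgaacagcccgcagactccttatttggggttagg

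Pdgfd fell on both days. It encodes a ligand of PDGFRβ. Its signals were 1354, 1847 and 1807 on day 0, 917, 1250.3 and 785 on day 1, and 969, 917 and 786 on day 3. Every primed mouse lay below every day 0 mouse, and days 1 and 3 overlapped. The mean was 984 ± 240 on day 1, 890.5 ± 94.5 on day 3 and 1669 ± 274 on day 0 (SD, n = 3 mice each). The log2 change was -0.78 ± 0.18 on day 1 (1.71-fold lower, adjusted p = 0.0103) and -0.90 ± 0.18 on day 3 (1.86-fold lower, adjusted p = 0.00439). The second probe set had 428, 662 and 506 on day 0, 377, 333 and 337 on day 1, and 282, 259 and 321 on day 3, again with no overlap between primed and day 0 mice, and gave -0.59 (adjusted p = 0.0257) and -0.87 (0.00358). Both calls were kept with any 1 array left out. A further probe set, present on 1 of 9 arrays, had signals of 18.7 to 41.4 and did not pass the filter.

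Pdgfa, whose product binds PDGFRα, had signals of 470.5, 526 and 654 on day 0, 793, 514 and 516 on day 1, and 759, 909.8 and 661 on day 3. The day 3 mice lay above all day 0 mice, and 1 day 1 mouse stood with them. The log2 change on day 3 was 0.50 ± 0.20 (adjusted p = 0.0854) and was not called. The second probe set gave 0.50 as well and passed narrowly (adjusted p = 0.0487), as did the first without day 1 replicate 1 (0.0401). On day 1 the change was 0.13 (95% interval -0.31 to 0.56).

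Hgf rose on day 3. Its product is a growth and motility factor for cells that carry MET, and its probe set was called present on 2 of 3 day 0 arrays and on all arrays of days 1 and 3. Its signals were 71.0, 79.0 and 77.6 on day 0, 134, 122 and 89.7 on day 1, and 169, 163 and 141 on day 3. The 3 days formed 3 separate groups, in rising order. The mean was 158 ± 14.5 on day 3 and 75.9 ± 4.28 on day 0 (SD, n = 3 mice each), a log2 change of 1.05 ± 0.21 or 2.08-fold (adjusted p = 0.00349). On day 1 the change was 0.58 ± 0.21 (adjusted p = 0.0528) and just missed the threshold. It passed with quantile normalization (0.84, adjusted p = 0.0247), with median centring and without day 1 replicate 3 (0.75, 0.0159). The second probe set had 41.8, 67.1 and 60.3 on day 0, 67.4, 91.6 and 61.8 on day 1, and 94.5, 119 and 126 on day 3, and gave 1.02 on day 3 (adjusted p = 0.0156). It was called present on 1, 1 and 3 of the 3 arrays of those days. A further probe set, present on 1 of 9 arrays, had 10.3, 66.6 and 10.2 on day 0, 46.2, 9.23 and 20.4 on day 1, and 118, 129 and 72.8 on day 3, and did not pass the filter.

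The window before the start of Hgf (GRCm38.p6, chr5:16553245-16553494, plus strand) is shown because Hgf had the largest rise of the 10 genes on day 3. Its capitals mark GCGTG read on the minus strand, and no other motif searched was found.
Hgf: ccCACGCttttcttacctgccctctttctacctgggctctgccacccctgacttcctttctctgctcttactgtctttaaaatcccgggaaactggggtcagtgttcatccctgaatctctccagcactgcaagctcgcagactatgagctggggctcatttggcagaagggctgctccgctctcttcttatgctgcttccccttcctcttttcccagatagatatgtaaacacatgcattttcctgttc

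Met, the receptor of HGF, was highest on day 1. Its signals were 419.7, 405 and 506 on day 0, 719, 609.9 and 535 on day 1, and 377, 306 and 465 on day 3. All day 1 mice lay above all mice of the other days, which overlapped with each other. The mean was 383 ± 79.4 on day 3 and 621 ± 92.5 on day 1, a log2 change of -0.71 ± 0.18 (1.63-fold lower, adjusted p = 0.0224). The change on day 1 against day 0 was 0.48 ± 0.18 (adjusted p = 0.0616), and that on day 3 against day 0 was -0.23 ± 0.18 (adjusted p = 0.375). The mean signals of the receptor and of its ligand were thus highest on different days, Met on day 1 and Hgf on day 3. The call between days 3 and 1 was lost without day 1 replicate 1 (-0.60, adjusted p = 0.0715), day 1 replicate 2 (0.0616), day 3 replicate 1 (0.0768) or day 3 replicate 2 (-0.56, 0.0973). The change on day 1 passed the test with quantile normalization (0.63, adjusted p = 0.0273), with median centring and without day 1 replicate 3 (0.0306). The second probe set was present on 1 of 9 arrays.

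The RefSeq window of Met lies inside the gene's annotated span, so only 2 stretches of 30 bases are shown, chosen for the ACGTG and AP-1 matches in them. The window also held GCGTG once and the GC box at 2 more positions. The first (GRCm38.p6, chr6:17463822-17463851, plus strand) holds CACGTG, which reads ACGTG on both strands, and a GC box. The second (chr6:17463892-17463921) holds an AP-1 motif.
Met, bases -135 to -106: acgaacagaCACGTGctgGGGCGGgtaccc
Met, bases -65 to -36: tgttgcccggcTGAGTCAcgggccgggcag
Of the 10 genes, 8 had a promoter entry.

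**Figure D2:**
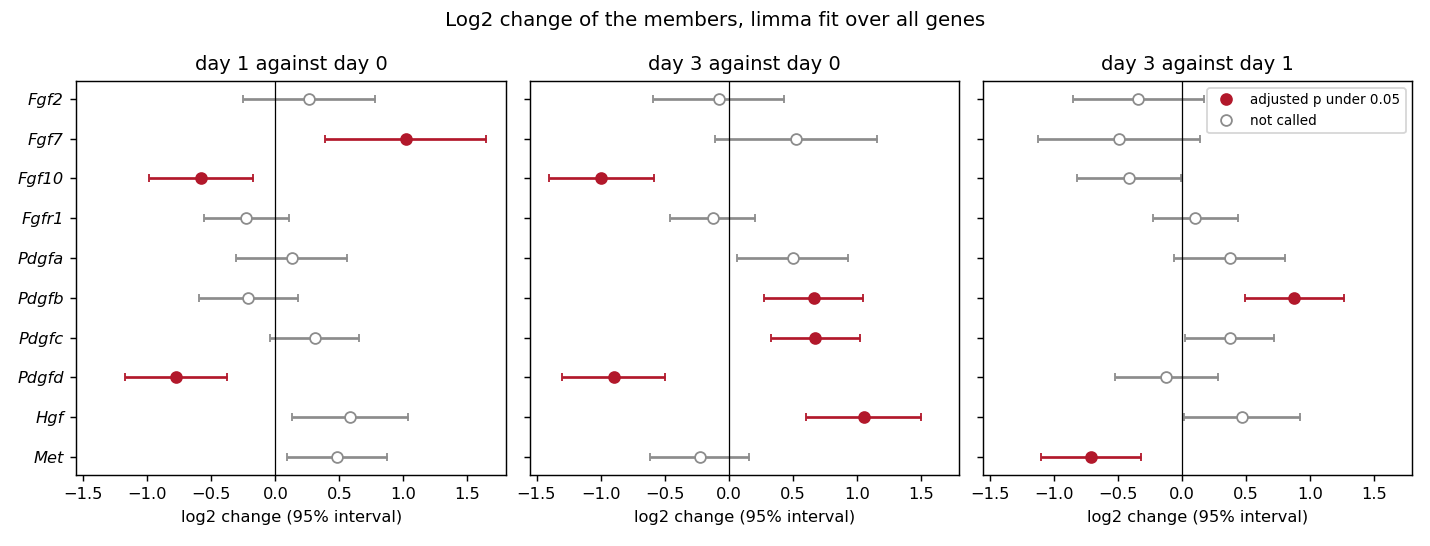
Log2 change (x axis) of the 10 genes with its 95% interval in the 3 comparisons, from the limma fit over all genes, where filled red points are called at an adjusted p under 0.05. On day 3 the calls run from -0.99 for Fgf10 to 1.05 for Hgf, and the interval of Met changes sides between the first and the last panel.

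Fgf7, Hgf and Met shared an order of mice on day 1, each highest in replicate 1 and lowest in replicate 3. The order was not particular to them, since Flrt3 and Cd44, described below, also had it, while Fgf13 had the reverse. Relative to day 0, the mean log2 signal of 4 T cell markers was -2.10 in replicate 1 and -0.58 in replicate 3 of day 1 and that of 4 B cell markers -1.37 and -0.28. The part of these cells in the 3 genes was not tested.

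Where a gene had more than 1 probe set that passed the filter, the change had the same sign in 22 of 24 comparisons of another probe set with the one used. The difference in log2 change was 0.16 in the median and 0.40 at most. The probe sets of Fgf7, Pdgfd and Hgf gave the same calls against day 0, and those of Pdgfa, Pdgfb and Pdgfc differed in theirs on day 3.

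**Figure D3:**
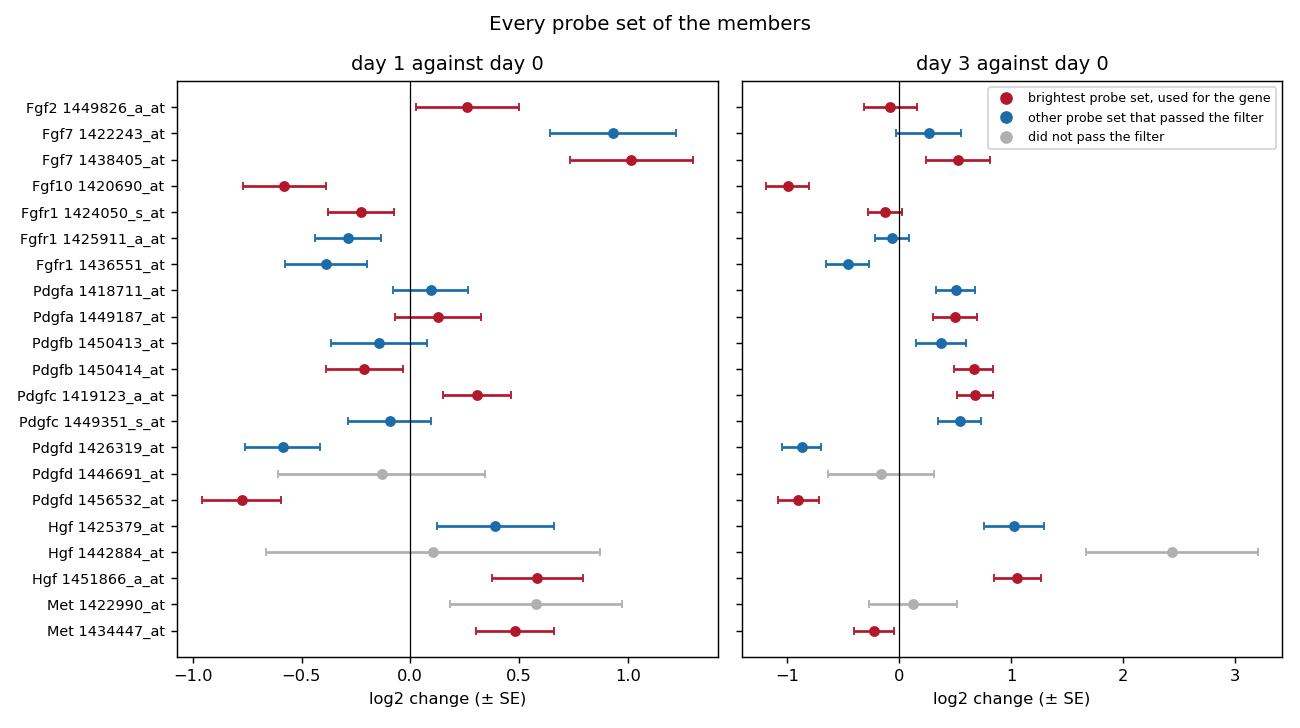
Log2 change (± SE) of every probe set of the 10 genes on day 1 and day 3 against day 0. The 2 Pdgfa probe sets lie closest together on day 3 (0.50 each), those of Fgf7 lie at 0.52 and 0.26 there, and the grey points are 3 dim probe sets that did not pass the filter.

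Cell markers also differed from day 0, in both directions. Over all genes tested, 10.7% rose and 17.9% fell on day 1, and 13.6% rose and 12.5% fell on day 3. Mesenchymal cells are known makers of Fgf7, Fgf10 and Hgf, and progenitor and fibroblast markers had a mean log2 signal relative to day 0 of -0.47 to -0.24 in the day 1 mice and -0.44 to -0.31 in the day 3 mice. Of 17, 5 fell and 0 rose on day 1, and 10 fell and 1 rose on day 3. For endothelial markers it was -0.73 to -0.62 on day 1 and -0.55 to -0.28 on day 3, with 9 and 5 of 12 fallen and 0 risen. For pericyte and smooth muscle markers it was -0.38 to -0.36 and -0.18 to -0.08, with 6 and 4 of 10 fallen and 1 risen on each day. Macrophage markers lay 0.61 to 0.85 above day 0 on day 1 and 0.58 to 0.83 above it on day 3, with 6 of 12 risen and 1 fallen on each day. Monocyte markers lay 1.19 to 1.63 and 1.02 to 1.05 above day 0, with 5 of 8 risen on each day and 1 fallen on day 1. The 4 platelet markers tested lay 1.77 to 2.44 and 1.74 to 1.87 above day 0 in the mean, but their median changes were 0.63 and 0.58. Of the 4, Ppbp (7.35 and 6.07) and Pf4 (1.26 and 1.20) rose, Itga2b (-0.01 and -0.05) and Gp1bb (-0.39 and -0.04) were not called, and the platelet genes Gp6 and Treml1 were present on no array. The median changes on days 1 and 3 were -0.26 and -0.48 for the progenitor, -0.73 and -0.19 for the endothelial, -0.43 and -0.19 for the pericyte, 0.36 and 0.40 for the macrophage and 1.22 and 0.70 for the monocyte list. Platelets and macrophages are known sources of PDGFs. The part of these cell types in the changes of Pdgfb, Pdgfc, Pdgfd, Fgf10, Fgf7 and Hgf was not tested.

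Of the other FGF ligands, 5 of 19 genes passed the filter. Fgf23, a hormone of bone, was dim, with 50.4, 46.8 and 23.9 on day 0, 115, 69.0 and 113 on day 1, and 63.8, 68.9 and 55.0 on day 3. It was called present on 1, 2 and 3 of the 3 arrays of those days. Its log2 change was 1.33 ± 0.34 on day 1 (adjusted p = 0.0142), a call lost without day 0 replicate 3 (0.99, 0.0516) or day 1 replicate 1 (0.0582). Fgf13, an FGF-related protein that stays in the cell, fell by 1.00 on day 1 (adjusted p = 0.0304) and by 1.10 on day 3 (0.0212). Fgf9 was 0.70 lower on day 3 than on day 1 (adjusted p = 0.0372). The Fgf9 call was lost with 8 of the 9 arrays left out in turn, and the change was -0.31 (adjusted p = 0.551) without day 3 replicate 3. The Fgf13 calls were lost with 4 single arrays on each day, and on day 1 its change was -0.60 (adjusted p = 0.0882) without day 1 replicate 1. The other 2 tested, Fgf1 and Fgf11, were not called in any comparison. The median log2 change of the 5 was -0.15 on day 1 and -0.44 on day 3.

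FGF receptors and the surface proteins that help them changed in both directions. Of 17 tested, 4 rose and 5 fell on day 1, and 4 rose and 3 fell on day 3, with median changes of -0.26 and 0.21. Over all genes, 28.6% were called on day 1 and 26.1% on day 3. Among the 17, syndecans and glypicans carry the heparan sulfate chains to which FGFs, HGF and some PDGF chains bind. Sdc3 rose by 1.43 ± 0.14 on day 1 (adjusted p = 3.86e-05) and 1.50 ± 0.14 on day 3 (2.7e-05). Its signals were 829, 830.4 and 967 on day 0, 2698, 1945 and 2502 on day 1, and 2602, 2608 and 2220.3 on day 3, with no overlap between primed and day 0 mice. Sdc1 had a change of 0.63 ± 0.13 on day 1 (adjusted p = 0.00461) and of 1.28 ± 0.13 on day 3 (3.71e-05), with 2380.2, 2463 and 2423 on day 3 and 911, 1019.7 and 1057 on day 0. Of the other syndecans, Sdc2 fell by 0.59 on day 1 (adjusted p = 0.0101) and by 0.41 on day 3 (0.0469), close to the threshold. Sdc4 rose by 0.59 ± 0.13 on day 1 (adjusted p = 0.00897) and was not called on day 3 (0.21, 0.277). The calls of Sdc2 and Sdc4, and that of Sdc1 on day 1, were not checked with arrays left out or in other settings.

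The glypicans also differed among themselves. Gpc6 fell by 1.50 on day 1 (adjusted p = 6.01e-05) and by 0.58 on day 3 (0.0193), and day 3 stood 0.92 ± 0.16 above day 1 (0.00349). Its signals were 1048, 931 and 1244 on day 0, 382, 313 and 446 on day 1, and 736, 742 and 662 on day 3, in 3 separate groups. Gpc3 fell by 0.80 on day 1 (adjusted p = 0.0077) and by 1.01 on day 3 (0.00187). Gpc4 fell by 0.62 on day 1 (adjusted p = 0.0315), was 0.42 ± 0.19 above day 0 on day 3, which was not called (0.130), and stood 1.04 ± 0.19 higher on day 3 than on day 1 (0.005). Gpc1 had a change of -0.02 on day 1 and of 0.76 ± 0.16 on day 3 (adjusted p = 0.00435), with 386, 356 and 357 on day 3 and 194, 242 and 215 on day 0. The calls of Gpc4 on day 1 and of Gpc1 and Gpc6 on day 3 against day 0 were not checked in other settings either.

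Flrt3, a membrane protein known to bind FGF receptors and to support their signaling in frog embryos, had the largest rise of this list. Its signals were 337, 519 and 525 on day 0, 2392, 1928 and 1317 on day 1, and 808, 1179 and 1090.0 on day 3. All primed mice lay above all day 0 mice, and the change was 2.02 ± 0.24 on day 1 (adjusted p = 1.53e-04) and 1.17 ± 0.24 on day 3 (0.00457). Of the receptors, Fgfr2 was not called on day 1 (-0.31, adjusted p = 0.333) or day 3 (-0.42, 0.203). Fgfr3 had 267, 265 and 400.5 on day 0, 148, 202 and 231 on day 1, and 226, 190.5 and 230.4 on day 3. It was called present on 0 of 3 day 1 arrays. Its change of -0.68 ± 0.21 on day 1 (adjusted p = 0.0349) was no longer called with quantile normalization (-0.44, 0.133) or with any 1 of 4 single arrays left out (-0.48, 0.141 without day 0 replicate 3). Fgfr4 was present on 3 of 9 arrays and was not tested.

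**Figure D4:**
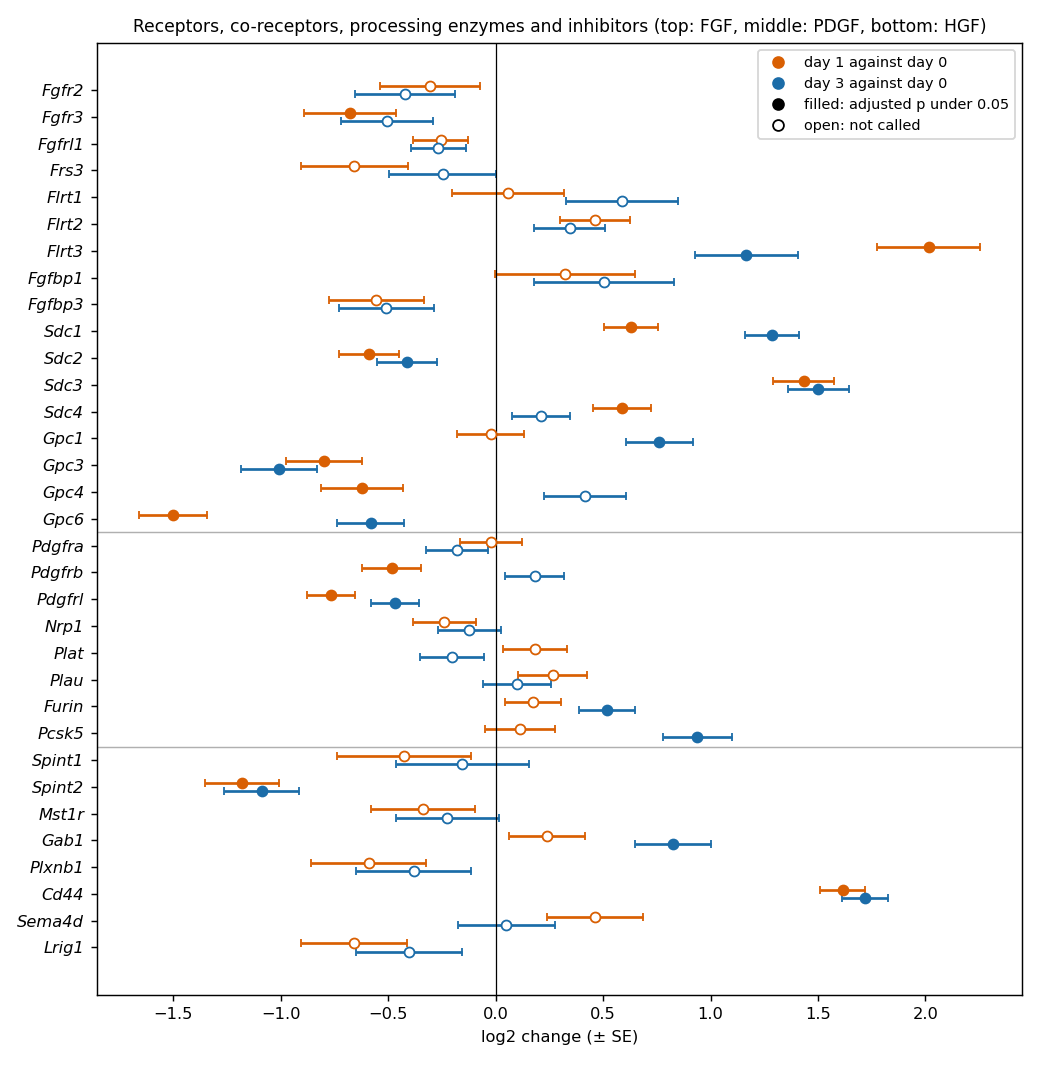
Log2 change (± SE) of all tested receptors, co-receptors, processing enzymes and inhibitors in the 3 lists (FGF at the top, PDGF in the middle, HGF at the bottom), with filled points for an adjusted p under 0.05. Flrt3 at 2.02 and Cd44 at 1.72 lie farthest to the right, and Gpc6 at -1.50 farthest to the left.

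Of 8 genes tested among PDGF receptors and processing enzymes, 0 rose and 2 fell on day 1, and 2 rose and 1 fell on day 3. The shares called over all genes were 28.6% on day 1 and 26.1% on day 3. Pdgfra, the receptor that marks adipose progenitors, had 5082, 4714 and 5647 on day 0, 6225, 4024 and 5149 on day 1, and 4483, 4688 and 4407 on day 3. The day 3 mice lay below all day 0 mice and day 1 overlapped with both, and the changes of -0.02 and -0.18 ± 0.14 were not called (adjusted p = 0.917 and 0.380). Between day 3 and day 1 the change of -0.16 was not called either (adjusted p = 0.485). As the mean of the Pdgfra probe sets, it was -0.50 and was called (0.0359). Pdgfrb, the receptor of pericytes, had 3056, 3395 and 4454 on day 0, 2451, 2524 and 2733 on day 1, and 4238, 4253 and 3734 on day 3. Its change was -0.48 ± 0.14 on day 1 (adjusted p = 0.0235) and 0.18 ± 0.14 on day 3 (0.361), and day 3 stood 0.66 ± 0.14 above day 1 (0.00908). Pdgfrb and its ligand Pdgfb were thus both higher on day 3 than on day 1, and the ligand Pdgfd was not (-0.12 ± 0.18, adjusted p = 0.686). The second Pdgfb probe set did not pass there (0.52, adjusted p = 0.132). The rise from day 1 was not particular to this pair. Of pericyte and smooth muscle markers, which include Pdgfrb, 4 of 10 were higher on day 3 than on day 1 and 1 was lower. Of 12 endothelial markers, 3 were higher and 0 lower, beside 9.66% and 4.54% of all genes. The part of these cells was not tested. The Pdgfrb call on day 1 was lost without day 0 replicate 3 (-0.33, adjusted p = 0.0908), day 1 replicate 1 or day 1 replicate 2. It was also lost with median centring (-0.36, adjusted p = 0.0671) and with only the 6 arrays compared (0.0553).

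Pcsk5, a proprotein convertase that can cut the PDGF-A precursor, rose by 0.94 ± 0.16 on day 3 (adjusted p = 0.00167), with 2832, 3989 and 2416 on day 3 and 1646, 1436 and 1639 on day 0. Its call was lost when probe sets whose suffix marks possible matches to several transcripts were left out (0.46, adjusted p = 0.249). Furin, another such convertase, rose by 0.52 ± 0.13 on day 3 (adjusted p = 0.0143), which was lost without day 0 replicate 2 (0.0549) or day 3 replicate 3 (0.0569). Pdgfrl, a receptor-like gene, fell by 0.77 on day 1 (adjusted p = 6.62e-04) and by 0.47 on day 3 (0.0107), where the call was lost without day 3 replicate 1 (0.0569). The proteases Plat and Plau, known to cut PDGF-C and PDGF-D, were not called (changes of 0.18 and 0.27 on day 1).

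Around HGF, Cd44 rose and Spint2 fell. Cd44, a hyaluronan receptor some forms of which assist MET, had 3112, 2894 and 2959.5 on day 0, 10277, 9253 and 8041 on day 1, and 9680.1, 10449 and 9374 on day 3, changes of 1.61 ± 0.11 (adjusted p = 1.61e-06) and 1.72 ± 0.11 (1.62e-06). Macrophages and neutrophils also express it. Spint2, an inhibitor of the proteases that activate HGF, had 1489, 1361 and 1657 on day 0, 499, 709.8 and 813 on day 1, and 749, 629.7 and 738 on day 3. It fell by 1.18 on day 1 (adjusted p = 6.77e-04) and by 1.09 on day 3 (0.00101). Spint1, of the same list, was dim and not called (-0.43 on day 1, adjusted p = 0.313, and -0.16 on day 3, 0.748). Gab1, the docking protein of MET, rose by 0.83 ± 0.18 on day 3 (adjusted p = 0.00576). Mst1r, the relative of Met, was not called (-0.34 on day 1, adjusted p = 0.303, and -0.23 on day 3, 0.526). Of 8 genes tested in this list, 1 rose and 1 fell on day 1, and 2 rose and 1 fell on day 3. Calls over all genes made up 28.6% on day 1 and 26.1% on day 3. The activators Hgfac, Hpn and Tmprss13 were present on no array.

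Genes that damp or report receptor signaling showed no common direction. Of 16 tested, 3 rose and 4 fell on day 1, and 4 rose and 1 fell on day 3, with median changes of -0.16 and 0.11. Among all genes, 28.6% were called on day 1 and 26.1% on day 3. Il17rd, an inhibitor of FGF signaling, fell by 1.39 on day 1 (adjusted p = 5.55e-04) and by 0.85 on day 3 (0.00903), with 76.8, 120.0 and 116 on day 1, 155, 142 and 148 on day 3 and 241, 275 and 287 on day 0. Spry1, a Sprouty inhibitor, fell by 0.83 on day 1 (adjusted p = 0.00801), as did the immediate early gene Egr3 (-1.01 ± 0.25, 0.0131). Spred1, an inhibitor of Ras activation, rose by 0.74 ± 0.12 on day 1 (adjusted p = 0.0017) and 0.96 ± 0.12 on day 3 (2.54e-04). On day 3 the ERK phosphatase Dusp5 (0.56, adjusted p = 0.00747) and the FGF-responsive transcription factor Etv5 (0.72, 0.0117) were higher than on day 0. Of the same list, Dusp4 (0.05, adjusted p = 0.880), Dusp6 (-0.05, 0.807), Spry2 (-0.13, 0.522) and Spry4 (-0.0006, 0.998) were not called on day 3 against day 0. Spred2 was 0.68 higher on day 3 than on day 1 (adjusted p = 0.015).

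In the chain from receptor to MAP kinase, 2 of 15 genes rose and 3 fell on day 1, and 2 rose and 1 fell on day 3. Beside them, 28.6% of all genes were called on day 1 and 26.1% on day 3. Plcg1, phospholipase C gamma, fell by 1.17 on day 1 (adjusted p = 0.00202) and by 0.70 on day 3 (0.0265). Pik3r1, a subunit of phosphoinositide 3-kinase, fell by 0.88 on day 1 (adjusted p = 0.00233). The kinase gene Map2k1 rose by 0.71 ± 0.12 on day 1 (adjusted p = 0.00145) and 0.58 ± 0.12 on day 3 (0.00429), and the adaptor Gab2 rose by 0.57 ± 0.13 on day 3 (0.00903), a call that was lost without suffixed probe sets (0.66, 0.0599). The ubiquitin ligase gene Cbl fell by 0.65 on day 1 (adjusted p = 0.0177). On day 3 Cbl and the Ras activator gene Sos1 stood 0.81 and 0.61 above day 1 (adjusted p = 0.0106 and 0.024). The call of Plcg1 on day 3 was lost with each of the 6 arrays of days 0 and 3 left out in turn (adjusted p = 0.053 to 0.0972), and as the mean of its probe sets the change was -0.42 (0.196). Leaving 1 array out lost the day 1 calls of Cbl and Egr3 with 4 arrays each, and the Etv5 call on day 3 with 1. For day 3 against day 1 it lost the call of Sos1 with 4 arrays, of Spred2 with 3 and of Cbl with 1. As the mean of probe sets, both Cbl calls (adjusted p = 0.077 and 0.069) and that of Spred2 (0.116) were lost. Median centring lost the Sos1 call (0.0529).

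Genes with the most similar course were sought for the 4 genes with the largest changes, as the smallest root mean square difference of centred log2 signals over the 9 arrays. For Hgf they were Gcsh (0.0605), Osbpl8 (0.101) and Plpp2 (0.106). For Fgf7 they were Cox7a1 (0.174), Layn (0.182) and Thyn1 (0.183), for Fgf10 Aox1 (0.113), Armcx5 (0.138) and Lypd6b (0.141), and for Pdgfd Aqp1 (0.0935), Cfap54 (0.112) and Clic5 (0.119). Aqp1 changed by -0.82 on day 1 and -0.91 on day 3, against -0.78 and -0.90 for Pdgfd.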

How the data were processed

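RNA of SVFs from 9 mice was measured on Affymetrix mouse arrays. The authors had summarized probe intensities with MAS5, and the deposited files hold per probe set a signal intensity on a linear scale, a detection call and a detection p-value. The signals have nearly the same trimmed mean on every array, as computed from the files, and the deposited value table equals them within rounding. Probe set annotation came from the array's platform annotation, and the files name no genome build. Of 45101 probe sets, 34945 carry a single symbol, 932 several and 9160 none. A probe set was kept if some day had it called present in all 3 mice, the one with the highest mean log2 signal stood for its gene, and 11796 genes were tested.

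The log2 of each signal, without any offset, entered a limma 3.58.1 model in R 4.3.3 (lmFit, contrasts.fit, eBayes with a variance trend) with day as the factor and all 9 arrays in 1 fit, leaving 6 residual degrees of freedom. Tests were two-sided, with Benjamini-Hochberg adjustment over all genes tested in each comparison, and the script was tested on simulated data. Tables were read with the data.table package (version 1.17.8). The replicates are individual mice, so p-values measure the spread between mice. The methods' analysis of variance with a 2-fold limit was run as an alternative.

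The 10 genes, the gene lists and the tests were chosen with earlier results of these data known. Text names all 10 genes, and up to 4 called genes per list and comparison by size of change plus 6 receptors. Some genes were named outside this rule after their values were seen (Plat, Plau, Fgf1, Fgf11, Sdc2, Sdc4, Spint1, Dusp4, Dusp6, Spry2, Spry4 and the 3 absent HGF activators), and likewise the order of the day 1 mice. Numbers shared by replicates of different days were not taken to pair the mice.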

Additional observations from a re-analysis of the deposited data

Results flagged for a closer look

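Day 3 differed from day 1 for 2 of the 10 genes, beside 14.2% of all genes, in the comparison of these days given above. No nonprimed mice of day 1 or day 3 were measured on these arrays, so priming and time cannot be told apart. The change of Pdgfb on day 3 minus its change on day 1, both against day 0, was 0.88 on the log2 scale (limma, adjusted p = 0.00798), with 3 of 3 day 3 mice above 3 of 3 day 1 mice. The same difference for Met was -0.71 (adjusted p = 0.0224), with 3 of 3 day 3 mice below 3 of 3 day 1 mice. The Met call was lost without day 1 replicate 1 or 2 or day 3 replicate 1 or 2 (adjusted p = 0.0616 to 0.0973). With the second probe set of each gene, neither difference passed. It was 0.52 for Pdgfb (adjusted p = 0.132) and -0.45 for Met (0.415), whose second probe set is dim and did not pass the filter.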

How the results depend on the processing

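With any 1 array left out, between 1 and 4 of the 10 genes were called on day 1, between 4 and 6 on day 3 and between 1 and 3 on day 3 against day 1, and of all genes 1866 to 4552, 1887 to 3625 and 744 to 2824. With only genes present on all 9 arrays, 3 of the 10 were called on day 3, since Fgf10 and Hgf were then not tested. The methods' analysis of variance with a 2-fold limit called, for day 1, day 3 and day 3 against day 1, 0, 1 and 0 of the 10 genes and 752, 860 and 445 of all genes unadjusted, and 0, 1 and 0 of the 10 and 595, 690 and 381 of all after Benjamini-Hochberg. With a replicate block it called 0, 1 and 0 of the 10 and 697, 794 and 417 of all unadjusted, and 0, 0 and 0 of the 10 and 323, 419 and 220 of all after Benjamini-Hochberg. Among the 10 genes, Fgf7 on day 1 (2.02-fold) and Hgf on day 3 (2.08-fold) were the only limma calls beyond the 2-fold limit. Fgf7 on day 1 was thus not called by the methods' analysis of variance in any of these forms, also unadjusted. In limma a replicate block gave 3, 5 and 2 of the 10 and 3509, 3157 and 1746 of all genes and changed no call of the 10. Same-numbered mice of different days correlated from -0.147 to 0.331 in their deviations, and differently numbered ones from -0.402 to 0.308. The numbers were not taken as pairs, since the methods name individual mice for each time point. The methods also call their analysis of variance one of repeated measurements, but no label pairs the mice.

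Some changes that were not called turned in sign. With quantile normalization Fgf2 was 0.0167 on day 3 and Mst1r -0.0446 on day 3 against day 1. With median centring Pdgfra was 0.0971 on day 1, and on day 3 against day 1 Fgfr1 was -0.0211 and Mst1r -0.0117. Pdgfra was 0.227 on day 1 as the mean of its probe sets. Fgfr1 was -0.0713 on day 3 against day 1 without suffixed probe sets, which is the value of its dimmest probe set. The other probe sets gave -0.0944 for Pdgfc on day 1 and 0.127 for Met on day 3. With 1 array left out, changes on day 3 ran from -0.255 to 0.0332 for Fgf2 and from -0.249 to 0.00888 for Fgfr1. On day 1 they ran from -0.0806 to 0.259 for Pdgfa and from -0.173 to 0.141 for Pdgfra. On day 3 against day 1 they ran from -0.272 to 0.0641 for Pdgfd, from -0.0216 to 0.215 for Fgfr1, from -0.00826 to 0.314 for Fgfr3 and from -0.265 to 0.0531 for Fgfr2. The cause was not tested.

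The calls of Pdgfd against day 0, of Fgf10, Pdgfc and Hgf on day 3 and of Pdgfb on day 3 against day 1 were kept with any 1 array left out. Beside the settings given in the report, the call of Fgf10 on day 1 was lost with no filter (adjusted p = 0.0978) and with only the 6 arrays compared (0.0512), that of Pdgfb on day 3 as the mean of its probe sets (0.52, 0.0501), and Hgf on day 1 was called without the variance trend (0.0273). The probe set of Fgf10 was called present on 1 of 3 day 3 arrays and that of Hgf on 2 of 3 day 0 arrays, so those means rest in part on arrays where detection failed.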
